A study of Apostichopus japonicus with 9 samples.

Results

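The names from miR-2004 to miR-2012 belong to a run of microRNA (miRNA) numbers first given in echinoderms, the animal phylum of sea urchins, sea stars and sea cucumbers. They were followed here in sea cucumber (Apostichopus japonicus) intestine under warm water. By number, 9 of the 409 names in either deposited table were such names: miR-2004, miR-2004-3p, miR-2005, miR-2005-5p, miR-2006-5p, miR-2008-5p, miR-2010, miR-2010-3p and miR-2012-5p. The study sequenced small RNA from 3 control animals under normal conditions, 3 animals held at 26 °C for 6 h and 3 held at 26 °C for 48 h, all weighing 100 to 120 g. No genotype, strain or age was given for any group, no temperature or sampling time for the control, and both heat groups were compared with that same control, so the warm water and the time held cannot be told apart.

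A miRNA is cut from one arm of an RNA hairpin, and the suffix 5p or 3p names that arm. Loaded into an Argonaute protein, it finds messenger RNAs by pairing through its seed, the stretch near its 5′ end, and lowers the output of those messages. A tabulated name records a match to a known sequence and does not show that this species carries the gene. Of these names, miR-2008 has been studied in skin disease of this species. No sequence of a member was in the material used here, so none is printed and no seeds were compared.

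The authors gave no value per animal, only the summed reads of each group and the average of its RPM, which scales a miRNA's reads to each M reads of its library. Reads divided by summed RPM give the average depth of the libraries that held the reads, weighted by level. Recovered in this way, library depths (in M reads, M for mega) were 91.6, 109 and 145 for the control animals, 54.4, 69.3 and 96.9 after 6 h, and 57.2, 61.9 and 113 after 48 h. From these depths the levels that each library can have were computed. A level in 1 library was taken to be either 0 or at least 20 RPM, a minimum inferred from the tables. A library is called below by its depth, and which animal it came from is not known. There is therefore no SD and no test between animals in what follows. The authors' q-values, under 0.05 for every listed name, compare pooled reads and cover counting error only.

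At 48 h all 8 listed member names stood higher than in the control, and at 6 h the listed members went both ways, with both miR-2010 names higher and miR-2008-5p lower. Only the miR-2010 names were in both tables. miR-2004, miR-2004-3p, miR-2006-5p, miR-2012-5p and the miR-2005 names were listed only at 48 h and miR-2008-5p only at 6 h. At the other time they had no listed value. Members are read here against the tables as a whole. Among the 275 names listed at 6 h, 56.7% were higher and 43.3% lower, which is 38.7% and 29.5% of the 403 names the authors tested. Among the 290 names listed at 48 h, 61.7% were higher, which is 43.1% of the 415 tested. Since every listed name was past 2-fold on the authors' ratio, a member could be listed as higher or lower but not as unchanged.

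Several names had nearly the same counts as another name and were taken to share its reads. This is inferred from the counts, since no sequences were compared. miR-2004-3p had 97.0% of the reads of miR-2004 in the control and 96.9% at 48 h. miR-2010-3p had 94.6% of the reads of miR-2010 in the control, 95.3% at 6 h and 95.3% at 48 h. miR-2005-5p had 98.9% of the reads of miR-2005 at 48 h. All 3 pairs at 48 h were thus within 15% of each other in every group with reads, as were 5 of 12 other pairs of a name with and without an arm. Counted once, the 8 names at 48 h are 5 miRNAs and the 3 names at 6 h are 2. No member number had names for both arms in a table, so the arms of a hairpin could not be compared.

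miR-2012-5p was the most abundant member. It had 347468 pooled reads and a mean of 1012 RPM in the control, and 487550 reads and 2384 RPM at 48 h. The means were 2.35-fold apart, and the authors' deposited table gave a log2 ratio of 1.06. In the control the deepest library held between 456 and 1302 RPM, and the columns allow an almost even spread, with a coefficient of variation of at least 4.07%. At 48 h the deepest library held between 875 and 1400 RPM, below the group mean, and at least 1 library held 3001 RPM or more. The control and 48 h libraries may or may not overlap: the lowest 48 h library held at most 1292 RPM and the highest control library at least 1037 RPM. The 48 h libraries other than the highest averaged at most 2075 RPM.

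miR-2004 came next, with 231442 pooled reads and 701 RPM in the control and 329140 reads and 1703 RPM at 48 h. The means were 2.43-fold apart, with a log2 ratio of 1.08 in the authors' deposited table. Its libraries overlapped between the groups under any split of the reads. The highest control library held at least 820 RPM, while the lowest 48 h library held at most 608 RPM. The deepest 48 h library, at 253 to 659 RPM, stood below the control mean, and up to 95.0% of the 48 h level could lie in 1 library. The least coefficient of variation was 27.9% in the control and 62.8% at 48 h.

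miR-2006-5p had 131795 pooled reads and 362 RPM in the control and 186819 reads and 720 RPM at 48 h. Its log2 ratio was 1.08 in the authors' deposited table, from pooled counts, while its means were 1.99-fold apart, under 2-fold. Its reads at 48 h lay more in the deepest library than those of miR-2012-5p, miR-2004 and miR-2010. That library held 1033 to 1127 RPM, 2.85 to 3.11 times the control mean, so the deepest library held at least 47.8% of the summed level. The 48 h libraries other than the highest averaged 516 to 560 RPM, which is at most 1.55 times the control mean.

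**Figure D1:**
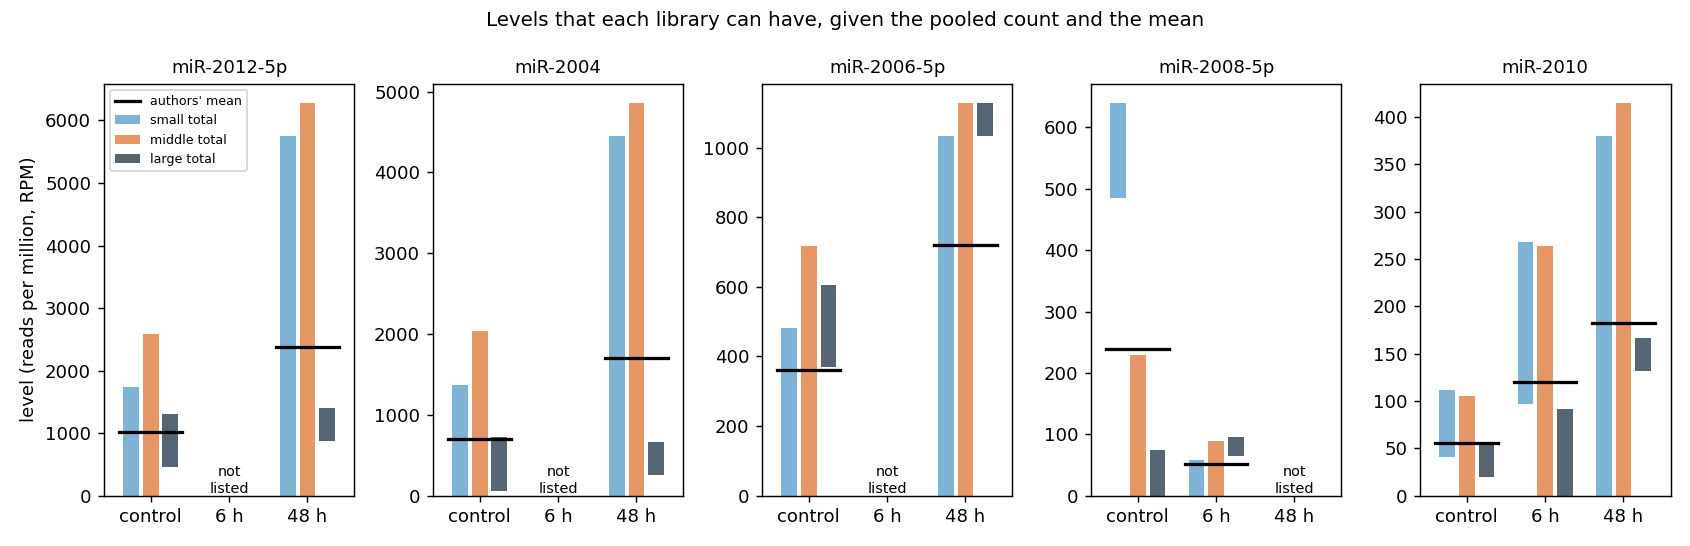
Levels of 5 members in each library, in RPM on a linear axis that starts at 0 and differs between panels. Each coloured bar spans the values that the library with the small, middle or large depth of its group can have (within a bar, a level is 0 or at least 20 RPM), and the black line is the authors' mean. For miR-2004 the dark bar at 48 h, up to 659 RPM, lies under the control mean of 701 RPM, while for miR-2006-5p it starts at 1033 RPM, above the 48 h mean of 720 RPM.

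miR-2010 was the member listed at both times. It had 18108 pooled reads and a mean of 55.3 RPM in the control, 23475 reads and 120 RPM at 6 h, and 40581 reads and 182 RPM at 48 h. In the authors' deposited tables its log2 ratio was 1.02 at 6 h and 1.74 at 48 h. The 6 h ratio was the smallest of all 156 increases listed at 6 h, and miR-2010-3p, with 1.03, was next to it. Counting error alone, as an exact binomial interval of 95% on the pooled reads, ran from 0.99 to 1.05 for miR-2010 at 6 h and so reached below 2-fold. The means were 2.17-fold apart at 6 h and 3.29-fold at 48 h.

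Within the libraries, the deepest 48 h library held 132 to 166 RPM of miR-2010, and no control library could hold more than 111 RPM under the 20 RPM minimum. At 48 h no arrangement of the reads puts every library above every 6 h library, since the lowest 48 h library held at most 154 RPM and the highest 6 h library at least 162 RPM. The means at 48 h and 6 h were 1.52-fold apart, with no test. At 6 h the shallowest library held 96.4 to 268 RPM and the deepest at most 92.1 RPM, so the 6 h libraries were not alike. The highest control library held at least 66.6 RPM and the lowest 6 h library at most 68.2 RPM. The least coefficient of variation was 33.5% in the control, 57.3% at 6 h and 15.3% at 48 h. These are minimum values and do not rank the true spreads.

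miR-2008-5p was the one member listed as lower. It had 69432 pooled reads and 238 RPM in the control and 12509 reads and 51.6 RPM at 6 h. The means were 4.62-fold apart, and the log2 ratio in the authors' deposited table was -1.83. The control level rested mainly on the shallowest control library, which held 485 to 639 RPM, 67.9% to 89.5% of the summed level. The deepest control library held at most 75.1 RPM and the lowest at most 56.6 RPM, while the highest 6 h library held at least 75.8 RPM. The groups thus overlapped under any split. Without the shallowest control library, the others averaged at most 115 RPM, and the ratio of the means falls to at most 2.22-fold. At 6 h the deepest library held 65.0 to 96.4 RPM.

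miR-2005 and miR-2005-5p had no reads in the control and 1403 and 1387 reads at 48 h, all in the shallowest 48 h library, at 24.5 and 24.3 RPM there. Their 48 h means were 8.18 and 8.09 RPM. A listed 0 stands for less than 20 RPM in every library, so no fold is given. The authors' deposited table gave q-values of 5.01e-206 and 2.65e-204 for them, which compare pooled reads and come from 1 library.

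**Figure D2:**
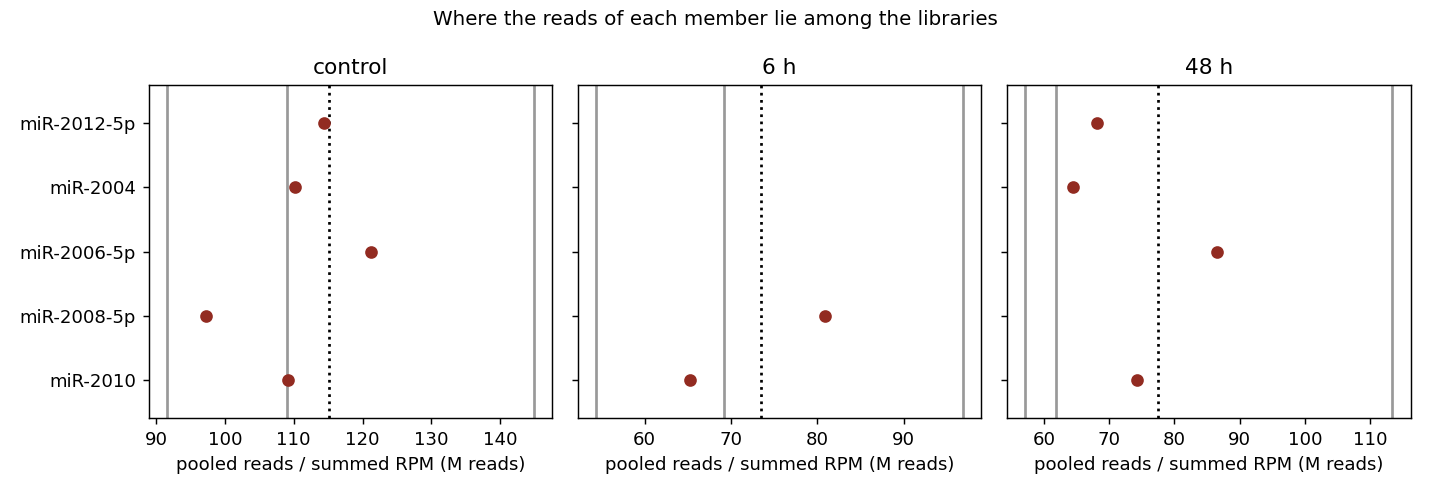
Pooled reads divided by summed RPM for 5 members in each group, in M reads. Grey lines mark the recovered library depths and the dotted line the value for an equal level in all 3 libraries. At 48 h miR-2006-5p lies at 86.5 M reads, on the deep side of the dotted line at 77.5 M reads, and miR-2004, miR-2012-5p and miR-2010 lie on the shallow side.

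The members did not share one distribution over libraries. Names with the same share of their level in each library must have the same ratio of pooled reads to summed RPM, since all are measured in the same libraries. At 48 h this ratio was 64.4 M reads for miR-2004, 68.2 for miR-2012-5p, 74.3 for miR-2010 and 86.5 for miR-2006-5p, where equal levels would give 77.5. In the deepest 48 h library miR-2006-5p and miR-2010 stood above their control means, by 2.85 to 3.11 and 2.38 to 3.01 times. miR-2012-5p there was 0.865 to 1.38 times its control mean, and miR-2004 was 0.362 to 0.941 times its own. In the control the ratio was 97.2 M reads for miR-2008-5p, 109 for miR-2010, 110 for miR-2004, 114 for miR-2012-5p and 121 for miR-2006-5p, against 115 for equal levels.

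In the order of mean levels, miR-2012-5p stood above miR-2004, miR-2006-5p, miR-2008-5p and miR-2010 in the control, and above miR-2004, miR-2006-5p, miR-2010 and miR-2005 at 48 h. The ratio of miR-2012-5p to miR-2004 was 1.44 in the control and 1.40 at 48 h, and that of miR-2004 to miR-2006-5p was 1.93 and 2.36. For neighbours in this order, the lowest library of the higher name was set against the highest library of the next, without pairing by library. No pair was apart in this way under every split of the reads. In the control the ranges over libraries overlapped under any split for miR-2006-5p over miR-2008-5p and miR-2008-5p over miR-2010. At 48 h they did for miR-2012-5p over miR-2004 and miR-2004 over miR-2006-5p. At 6 h the ranges of miR-2010 and miR-2008-5p overlapped likewise. Within 1 library, names can still differ under any split. In the deepest 48 h library miR-2012-5p, at 875 to 1400 RPM, stood above miR-2004, at 253 to 659 RPM. miR-2006-5p there, at 1033 to 1127 RPM, also stood above miR-2004, against the order of the means. Summed over names counted once, the members of the 48 h table made up 0.213% of reads in the control and 0.4997% at 48 h, 2.35-fold apart.

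How the members cleared 2-fold depends on the depths. The pooled reads themselves were 1.42-fold higher at 48 h for miR-2004, 1.42-fold for miR-2006-5p and 1.40-fold for miR-2012-5p. Pooled depth was 1.49-fold greater in the control than at 48 h, and scaling by it brought these ratios just past 2-fold. Of the 179 increases listed at 48 h, their log2 ratios of 1.08, 1.08 and 1.06 ranked 6, 4 and 3 from the smallest. With the 5 most abundant miRNAs of each table left out of the totals, these log2 ratios became 0.99996, 0.995 and 0.981. miR-2010 kept 1.66 at 48 h and had 0.79 at 6 h. For miR-2008-5p the value was -2.06.

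A stricter call set libraries that could be under 20 RPM to 0 in the higher group and 20 RPM in the lower. The ratio of the resulting means, not of pooled counts, had to reach 2-fold. Member levels were already taken as 0 or at least 20 RPM, so only the lower group's values changed. The ratio could exceed the authors', as for miR-2012-5p and miR-2004 at 48 h, with log2 ratios of 1.23 and 1.27. At 6 h the call left miR-2008-5p, with a log2 ratio of -1.99, and neither miR-2010 name, at 0.95 and 0.96. Over all names listed at 6 h it left 18.9% as higher and 10.5% as lower. At 48 h it left 5 of the 8 names, which are miR-2012-5p and both names of miR-2004 and of miR-2010. Over all names listed at 48 h it left 20.7%, or 60 of 290. Of these 290, 111 were listed as lower and could not be called higher. Of the 179 listed as higher, 58 had reads in both groups. Names without control reads were set against 20 RPM, so those at a low level could not pass. miR-2006-5p had 0.96.

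**Figure D3:**
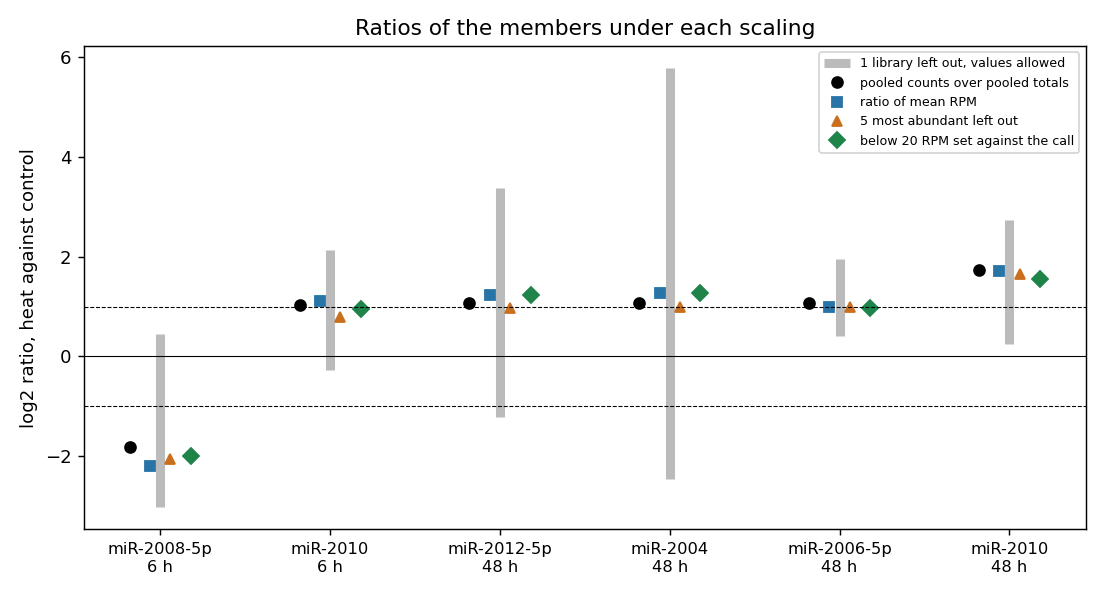
Log2 ratio of heat to control for 5 members at the times when they were listed, under 4 ways of scaling. Dashed lines mark 2-fold, and the grey bar spans the values allowed when 1 library of either group is left out. Only for miR-2006-5p and miR-2010 at 48 h does the grey bar stay above 0.

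Among the 6 member names with reads in both groups of the 48 h table the median log2 ratio was 1.08. It was 1.32 among the 58 increases with reads in both groups. Of 73 listed names with reads in both groups, the 3 nearest to each member on control and 48 h levels were sought among the 67 that were no members. For miR-2012-5p they were miR-125c, at 990 and 2385 RPM, miR-125b, at 976 and 2335 RPM, and miR-4005c-5p, at 994 and 2254 RPM. miR-125c and miR-125b also had ratios of pooled reads to summed RPM at 48 h near that of miR-2012-5p, at 70.5 M reads each, whereas miR-4005c-5p had 108. For miR-2004 they were miR-124 and miR-124-3p, at 1789 and 1832 RPM at 48 h, then miR-4005c-5p. For miR-2006-5p they were miR-1715-5p, miR-7-5p and miR-7b. For miR-2010 they were miR-71-5p, miR-1c-3p and let-7b-5p. For miR-2010-3p let-7a-5p took the place of miR-1c-3p. Over all 3 groups and 30 candidates, let-7b-5p was nearest to miR-2010, at 62.9 RPM in the control, 166 RPM at 6 h and 126 RPM at 48 h, followed by let-7a-5p and let-7e. Unlike miR-2010, let-7b-5p and let-7a-5p had a lower mean at 48 h than at 6 h.

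**Figure D4:**
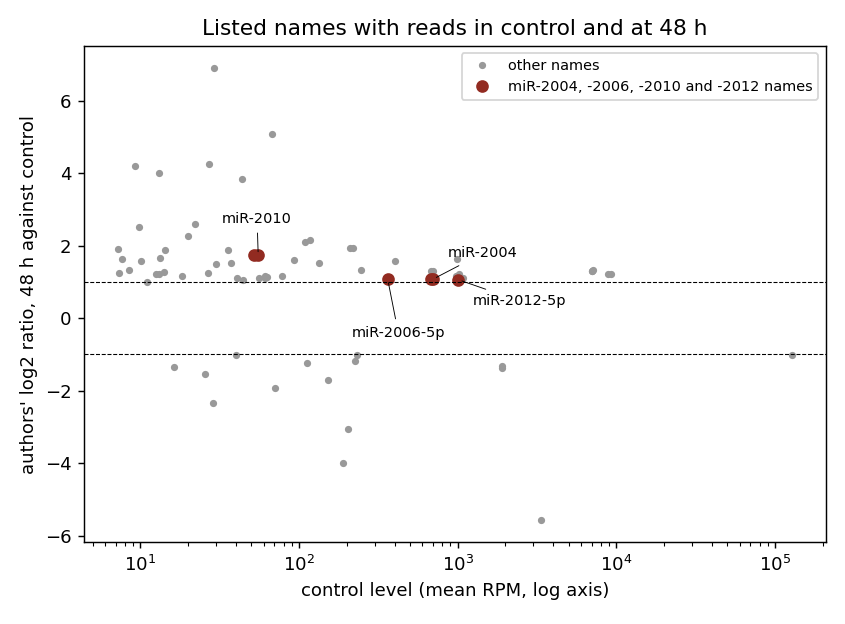
The authors' log2 ratio of 48 h to control against the control level in mean RPM, on a log axis, for the 73 listed names with reads in both groups. Red points are member names and dashed lines mark 2-fold. The miR-2004, miR-2006-5p and miR-2012-5p points lie just over the upper line, and the miR-2010 names lie at 1.74 and 1.75.

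Markers of cell types that an intestine can hold moved at 48 h too, and their part in the members' levels was not tested. Fewer cells of a type and less RNA per cell cannot be told apart in such bulk tissue. Of the muscle names, 5 of 7 listed were higher, and their summed level, with shared names counted once, was 7323 RPM in the control and 18004 RPM at 48 h, almost all of it miR-1a-3p. All 6 listed neural names were higher, with sums of 713 and 1877 RPM, most of it miR-124-3p. miR-124 and miR-124-3p were taken to share reads. Each other neural name had its 48 h reads in 1 library, at a mean of 26.1 RPM or less. Both listed epithelial names were higher, with sums of 0 and 1374 RPM, almost all of it miR-429, at 1364 RPM. In the deepest 48 h library miR-429 held at most 178 RPM, so its level lay mainly in the other libraries. The other name, miR-194-5p, had its 48 h reads in 1 library, at a mean of 9.87 RPM. The secretory names split by family, with 4 miR-7 names higher and 4 miR-375 names lower. For example, miR-7-5p had 218 RPM in the control and 763 RPM at 48 h, and miR-375 had 1912 and 693 RPM. Their joint sums of 2473 and 2291 RPM thus mix opposite changes. The reads of miR-7a at 48 h, and of miR-7 and miR-375-5p in the control, lay in 1 library. In the deepest 48 h library, miR-124-3p held 374 to 802 RPM, 0.535 to 1.15 times its control mean, and miR-1a-3p 1.51 to 2.01 times its own. At 6 h the sums were 9.32 and 0 RPM for muscle, 23.8 and 49.4 RPM for neural, 69.8 and 51.6 RPM for epithelial and 2145 and 830 RPM for secretory names. Each sum covers only the names listed at that time, so control sums differ between the times although the control is the same. The sums thus cannot be compared between 6 h and 48 h. At 6 h the muscle sum was miR-133-5p alone, with control reads in 1 library, and no miR-1 name was listed. The 69.8 RPM of control epithelial names at 6 h was miR-8, which was not listed at 48 h. At 6 h, 1 of the 2 muscle numbers, 1 of the 3 neural, 5 of the 7 epithelial and 1 of the 2 secretory numbers had no listed name, and at 48 h 5 of the 7 epithelial numbers. No miRNA that defines a sea cucumber intestine was among these lists, so the tissue label could not be checked.

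Other numbers of the same series, miR-2001, miR-2002, miR-2003 and miR-2013, were listed in neither table. Of the conserved families known from many bilaterian animals, 28 numbers were looked up. They gave 38 listed names at 6 h, 18 higher and 20 lower, and 47 at 48 h, 32 higher and 15 lower. With shared names counted once, 15 were higher and 17 lower at 6 h, and 22 higher and 14 lower at 48 h. All listed names counted once gave 149 higher and 116 lower at 6 h, and 165 and 110 at 48 h. By the stricter call 8 of the conserved names were higher and 8 lower at 6 h, and 19 higher and 8 lower at 48 h. Over all listed names this call gave 52 higher and 29 lower at 6 h, and 60 and 29 at 48 h.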

How the data were processed

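Per the labels' protocols, Trizol was used for total RNA of each animal, RNA of 18 to 30 nt was cut from a gel and given adapters, and HiSeq reads came from products sized 140 to 160 bp. The aligner, miRNA database and genome build were not given in the sources used here. Per the file headers, the authors deposited read counts per miRNA, which are pooled over a group. The authors' expression column names no unit, and its values are those of a mean RPM over 3 libraries, with 0.001 for a library at 0. The log2 ratio is the authors' comparison of heat to control, and on the values it uses pooled counts over pooled totals, with 0.5 for a count of 0. The deposited p-values and q-values come from a test that is not named. The number of names tested was read from the ratio of q-value to p-value.

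Library depths are the 3 densest ratios of count to summed RPM among names with reads in 1 library. Their sums gave the authors' scaling to within 0.0127% at 6 h and 0.0271% at 48 h. Every split of a member's reads that gives its count and mean was enumerated on a grid, with each library at 0 or at least 20 RPM, a limit added after the values were seen. The method was run on simulated data built with the same depths, 3 libraries and 20 RPM minimum. That run therefore cannot check these assumptions for the real values. The design had assumed an edgeR test where values per library exist. Since none were given, the authors' values stand and no test was run. Intervals cover counting error only. Names of 1 number with counts within 15% were counted once. Named miRNAs are all members and the 3 nearest listed names by distance on log2 mean RPM. Members and lists were chosen with earlier results of these data known. Python 3.11.15, numpy 2.4.6, pandas 2.3.3 and scipy 1.17.1 were used.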

Additional observations from a re-analysis of the deposited data

How the results depend on the processing

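Limits: each value pools 3 animals, the depth leaves little counting error, and the spread between animals is known only through bounds. The settings were planned except the 2-fold ratio of means and the 20 RPM limit on library levels, which were chosen after seeing the data. With the 5 most abundant miRNAs left out, which shifts every log2 ratio by -0.23 at 6 h and -0.08 at 48 h, the log2 ratios fell under 1 for miR-2010 and miR-2010-3p at 6 h (0.789 and 0.799) and for miR-2004, miR-2004-3p, miR-2006-5p and miR-2012-5p at 48 h (0.99996, 0.998, 0.995 and 0.981). With libraries that could lie below 20 RPM counted against the difference in means, miR-2010 and miR-2010-3p at 6 h had 0.952 and 0.955. miR-2006-5p at 48 h had 0.964. From the means, miR-2006-5p had 0.991. The cause of these shifts beyond the scaling itself was not tested. The 5 miRNAs left out were chosen among listed names, so an unlisted miRNA could not be chosen, whatever its level. At both times miR-10c-5p ranked 1 among them, at 127756 RPM in the control, 97.7 RPM at 6 h and 47665 RPM at 48 h. The 2 higher names at 6 h became 0 at a ratio of means of at least 2.5, 0 with the 5 most abundant left out, 0 by the stricter call and 1 with shared names counted once. The 8 at 48 h became 2 at a ratio of means of at least 2.5, 2 with the 5 most abundant left out, 5 at a ratio of means of at least 2 (which leaves the miR-2005 names without a ratio), 5 by the stricter call, 5 with shared names counted once and 6 with at least 50 RPM. The 1 lower name at 6 h kept its call under these settings. For the ratio-of-means, 50 RPM and left-out settings, no share over all listed names was computed. These member counts therefore cannot be read as particular to the members. Leaving out 1 library of either group, the columns allow log2 ratios from -3.03 to 0.46 for miR-2008-5p, -0.27 to 2.13 for miR-2010 and -0.26 to 2.13 for miR-2010-3p at 6 h. At 48 h they allow -2.47 to 5.79 for miR-2004, -2.47 to 5.76 for miR-2004-3p, 0.41 to 1.96 for miR-2006-5p, 0.25 to 2.74 for miR-2010, 0.25 to 2.74 for miR-2010-3p and -1.21 to 3.39 for miR-2012-5p. These ranges are what the columns permit, not estimates. No paired analysis was possible because the columns hold pooled values with no replicate numbers.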
